A study of Salmo salar with 6 samples.

Results

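Ion channels and aquaporins were examined in the head kidney (HK) of Atlantic salmon, *Salmo salar*. The genes were taken by symbol: the probes that were not array controls were looked up by RefSeq accession among the annotated genes of assembly Ssal_v3.1, and a gene entered when its symbol began with the stem of a channel or aquaporin family, such as kcn, cacn, trpv, p2rx, stim or aqp. This gave 89 genes with 1 probe each, out of 8155 probes that carried a gene symbol and 42386 probes in all. The stem also admits genes that are not channel pores: grina and grinaa, which resemble Bax inhibitor proteins, trpc4apa, whose mammalian counterpart is a TRPC4-associated scaffold, the calcium sensors stim1 and stim1a, and auxiliary subunits such as kcne4, kcnmb3, scn4ba, scn4bb and cacnb3a. No Piezo or inositol trisphosphate receptor probe carried a matching symbol.

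Transcripts were measured with Cy3 on 6 Agilent arrays of a single color, 1 pool of HK RNA to an array. Of the pools, 3 came from juvenile fish given the AQUOLIVE® diet, in which an olive fruit extract was included at 0.15%, and 3 from fish fed the control diet without it, both for 133 days, which ran from the parr stage through smoltification into seawater. All fish were unvaccinated and had been bathed in hydrogen peroxide and formaldehyde on arrival, and no strain was given in the sources used here. Each pool combined the RNA of 6 fish, 1 from each replicate tank (18 fish per diet), and errors therefore describe pools, not individual fish.

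Ion channels are membrane proteins that open a pore for potassium, sodium, calcium or chloride, and aquaporins open one for water and, in the aquaglyceroporin branch, for glycerol. The HK of bony fish makes blood cells and holds leukocytes, interrenal steroid cells and chromaffin cells, with some renal tubule in many species. In mammalian leukocytes, calcium stored in the endoplasmic reticulum is sensed by STIM proteins, which open ORAI pores in the plasma membrane, whereas P2X receptors open to extracellular ATP. Many other families listed here, among them the glutamate, GABA, glycine and nicotinic receptors, are best known from nerve and muscle.

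Most channel genes were dim or undetected in HK. A probe was counted as detected on an array when the scanner software marked it well above background. Of the 89 genes, 18 (20.2%) were detected on all 6 arrays, 18 on 3 to 5 arrays, 27 on 1 or 2 arrays and 26 (29.2%) on no array. Among all probes with a symbol, 55.8% were detected on all 6 arrays and 12.7% on none. Detection on at least 3 arrays, which was required for the comparison of the diets, was reached by 36 channel and aquaporin genes (40.4%), against 73.1% of the probes with a symbol and 60.9% of all probes.

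Detection was uneven among families. Of the 6 TRP genes, a family of cation channels, 4 were detected on all 6 arrays, namely trpc1, trpm4a, trpv1 and the associated gene trpc4apa. All 3 STIM and ORAI genes were detected on at least 3 arrays. Of the 9 aquaporins, 3 reached that number, and so did 4 of 11 voltage-gated potassium channels, 4 of 10 tandem-pore potassium channels (kcnk), 3 of 8 inward rectifiers (kcnj), 2 of 5 P2X receptors and 2 of 3 chloride intracellular channels (clic). The only ryanodine receptor, ryr1a, the muscle calcium release channel in mammals, was detected on no array, as were the nicotinic subunits chrna4b and chrnd, the glutamate receptor genes gria1b, gria2b and grik4, and the pacemaker channels hcn2b and hcn5. The remaining genes detected on no array were aqp8a.1, aqp8a.2, clcn6, clic3, gabra4, kcna10a, kcnd3, kcnh5a, kcnj12a, kcnj15, kcnk10b, kcnk3a, kcnk4a, kcnk5a, kcnmb3, kcnn1b, p2rx4b and trpc6b. A call of not well above background gives only a bound on the signal, and a single probe may miss other transcripts of its gene. Neighboring genes differed in places: p2rx7 was detected on all 6 arrays and p2rx4b, next to it in the gene table, on none, whereas the adjacent aqp8a.1 and aqp8a.2 were both undetected.

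**Figure D1:**
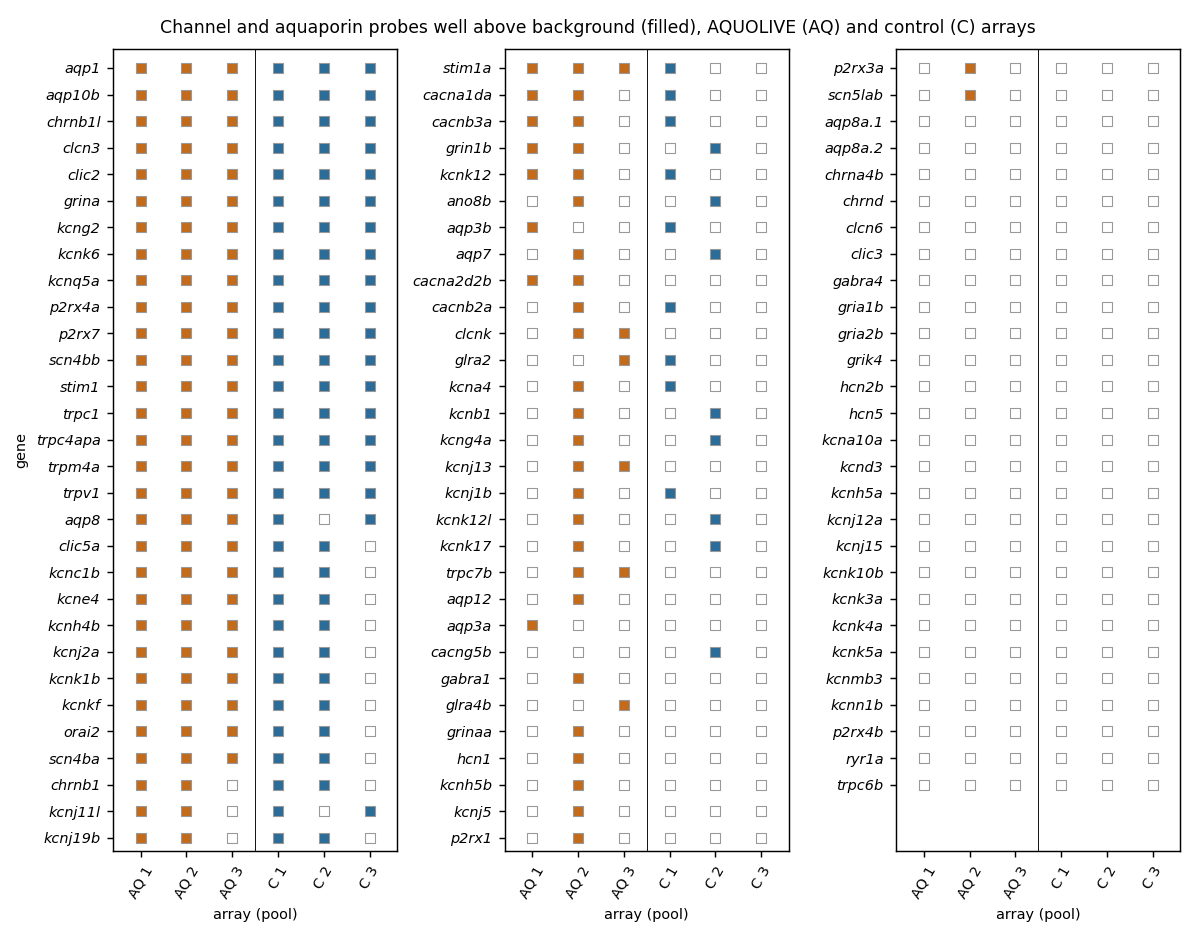
Detection of 88 channel and aquaporin genes on each array, with AQUOLIVE® (AQ) pools 1 to 3 left and control (C) pools 1 to 3 right of the line. Filled squares mark probes well above background and open squares those that were not. AQUOLIVE® pool 2 has the most filled squares, 57, and control pool 3 the fewest, 19.

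The arrays differed in how much they detected. Channel and aquaporin genes well above background numbered 39, 58 and 34 in AQUOLIVE® pools 1, 2 and 3, and 40, 37 and 20 in control pools 1, 2 and 3. The share of all probes was 61.0%, 76.0% and 54.1% in AQUOLIVE® pools and 60.9%, 59.9% and 42.5% in control pools, so the same arrays were high and low in both. Across the arrays, 30 of the 89 genes (33.7%) were detected on more AQUOLIVE® than control arrays and 1, the calcium channel subunit cacng5b, on more control arrays. These classes held 27.8% and 5.53% of all probes, and 21.6% and 4.16% of the probes with a symbol. Of the 30, 9 were detected on AQUOLIVE® pool 2 alone and another 9 were missed on control pool 3 alone. Each class held 10.1% of the 89 genes, against 7.61% and 8.96% of all probes. The shares of probes with a symbol were 5.65% and 7.58%. Without these 2 arrays, 8 genes were detected on more AQUOLIVE® arrays and 12 on more control arrays (7.73% and 12.2% of all probes). The shares of probes with a symbol were then 5.97% and 8.73%. Each array lay on a slide of its own and the slide numbers of the diets lay apart, so slide and diet cannot be told apart.

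The comparison of the diets asked which of the 36 genes differed in level between fish fed the AQUOLIVE® and the control diet. None of them passed limma's test at an adjusted p under 0.05, which 0.0155% of the 25826 probes tested passed, and the smallest adjusted p among them was 0.174 (stim1a). At an unadjusted p under 0.05, 2 were higher in AQUOLIVE® pools, kcnkf and stim1a, against 9.56% of all probes tested, and 3 were lower, kcnj19b, clcn3 and p2rx4a, against 8.59%. They made up 5.56% and 8.33% of the 36 genes, the second share being close to that of all probes. The methods' t-test gave 2 higher (kcnkf and stim1a) and 3 lower (kcnj19b, p2rx4a and chrnb1l) at the same unadjusted level. These were again 5.56% and 8.33% of the 36 genes, against 8.11% and 7.66% of all probes. No gene or probe passed the t-test after Benjamini-Hochberg adjustment. With 3 pools per diet an exact permutation test of a single gene cannot go below p = 0.1.

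The pools of the diets did not overlap for 8 of the 36 genes. Every AQUOLIVE® pool lay above every control pool for kcnkf, stim1a and kcnk6, which held for 14.7% of all probes, and below every control pool for kcnj19b, p2rx7, clcn3, p2rx4a and chrnb1l, which held for 15%. After normexp background correction these 8 differences were closer to 0: the log2 FC was 0.60 for kcnkf, 0.38 for stim1a, 0.045 for kcnk6, -0.15 for kcnj19b, -0.40 for p2rx7, -0.34 for clcn3, -0.14 for p2rx4a and -0.21 for chrnb1l. The log2 FC (AQUOLIVE® over control) of the 36 genes ranged from -1.69 to 1.69, with 16 genes (44.4%) above 0, against 48.6% of all probes tested. Over the 36 genes the median log2 FC was -0.17, beside -0.02 over all probes tested. This median had the opposite sign, 0.08, without control pool 3, and was 0.90 in the deposited log2 values taken as they are, where that of all probes was 0.98. HK is a mixture of cells, and in such bulk RNA fewer cells of a type and less RNA per cell cannot be told apart.

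**Figure D2:**
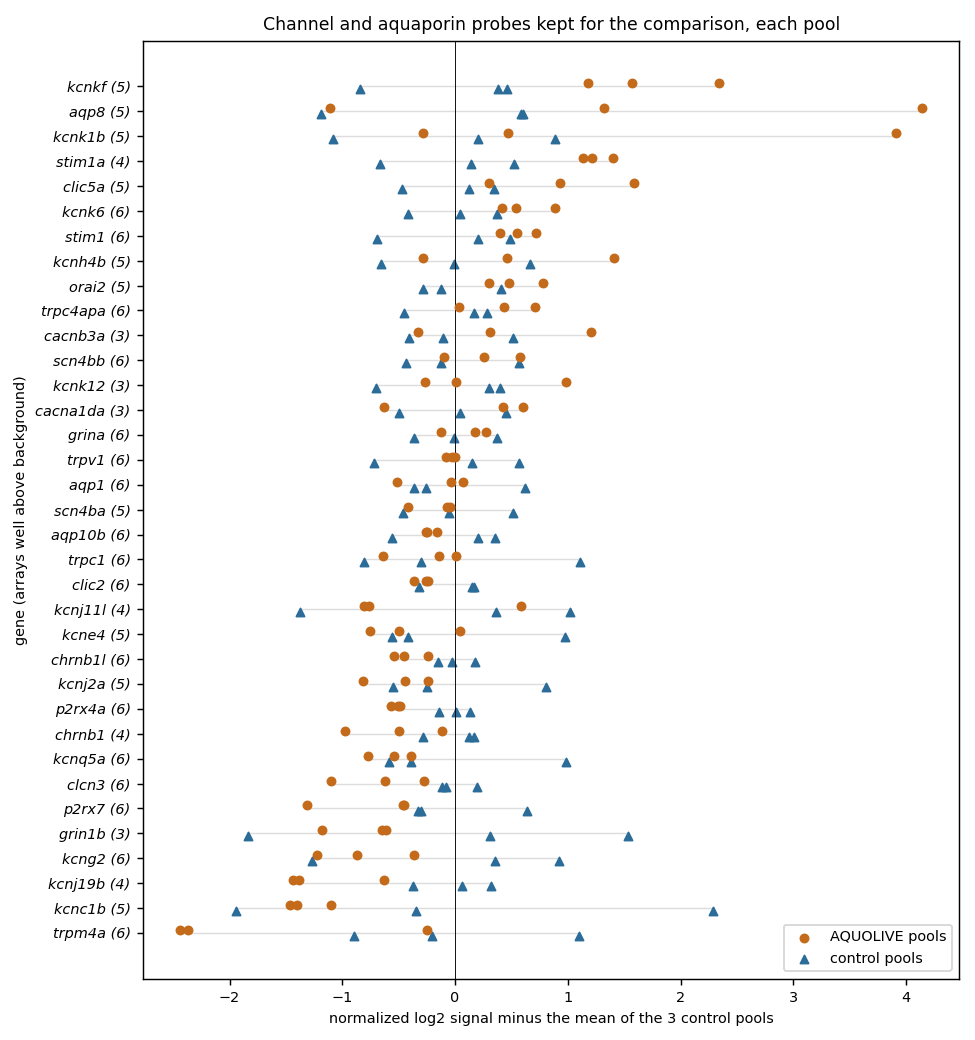
Normalized log2 signal of each pool minus the mean of the 3 control pools, for 35 genes detected on at least 3 arrays, ordered by log2 FC, with the number of arrays well above background in brackets. Circles are AQUOLIVE® pools and triangles control pools. The symbols of the diets separate for 8 genes, among them kcnkf and stim1a at the top and kcnj19b near the bottom, and aqp8 and kcnk1b are stretched by a single AQUOLIVE® pool.

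Levels below are normalized log2 signals, which compare a probe between pools and not one probe with another. Among aquaporins, aqp1, the water channel of red cells and endothelium in mammals, had levels of 11.87, 12.45 and 12.34 in AQUOLIVE® pools 1, 2 and 3 and 12.02, 12.12 and 13.00 in control pools. The aquaglyceroporin aqp10b had 12.54, 12.45 and 12.44 in AQUOLIVE® pools and 12.15, 13.06 and 12.90 in control pools. For both genes the diets overlapped, and control pools were spread wider (SD 0.54 and 0.49) than AQUOLIVE® pools (SD 0.31 and 0.06). Over all probes tested the median SD was likewise larger in control pools, 0.45 against 0.24. The difference was -0.16 ± 0.34 (log2 FC ± SE, adjusted p = 0.806) for aqp1, with a 95% interval of -0.98 to 0.66. For aqp10b it was -0.22 ± 0.29 (adjusted p = 0.680), with an interval of -0.93 to 0.48, and both intervals leave room for differences in either direction.

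The other aquaporin detected on at least 3 arrays, aqp8, a channel for water and hydrogen peroxide in mammals, was carried by 1 pool. Its levels were 6.45, 4.03 and 9.28 in AQUOLIVE® pools 1, 2 and 3 and 5.74, 3.95 and 5.72 in control pools, with control pool 2 not well above background. The log2 FC was 1.45 ± 1.31 (adjusted p = 0.555). The remaining aquaporins with any detected signal were each detected on 1 or 2 arrays. Processed signals, given here and below for such genes, were not scaled between arrays. Their median over all spots but controls ran from 16.7 in control pool 3 to 108 in AQUOLIVE® pool 1. The aquaglyceroporin aqp3b had a processed signal of 137 in AQUOLIVE® pool 1 and 41.8 in control pool 1, and was not well above background elsewhere. Its paralog aqp3a was detected in AQUOLIVE® pool 1 alone, at 57.5, and aqp12 in AQUOLIVE® pool 2 alone, at 33.2. The aqp12 signal was almost as high, 31.9, in control pool 2, where it was not called detected. Another aquaglyceroporin, aqp7, was detected in AQUOLIVE® pool 2 at 28.6 and in control pool 2 at 368, where aqp3a and aqp3b were not detected.

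AQUOLIVE® pool 3, which held the highest aqp8 level, also held the highest level of the tandem-pore potassium channel kcnk1b: 5.54, 4.79 and 8.98 in AQUOLIVE® pools 1, 2 and 3, against 5.95, 5.27 and 3.99 in control pools, the last not well above background. Signals seen mainly in AQUOLIVE® pool 3 included the cation channel trpc7b, with a processed signal of 831 in that pool and at most 53.5 elsewhere, the glycine receptor subunit glra4b at 483, the inward rectifier kcnj13 at 158, glra2 at 102 and clcnk, a chloride channel of mammalian renal tubule, at 76.9. Of these, trpc7b, kcnj13 and clcnk were also detected in AQUOLIVE® pool 2, and glra2 in control pool 1 at 42.2. Of the 11 renal tubule genes looked up, 6 had a probe (7 probes), and 3 probes were detected on at least 3 arrays. The cadherin gene cdh17, a tubule marker in zebrafish, had levels of 3.61, 4.88 and 9.64 in AQUOLIVE® pools and 5.02, 3.05 and 6.42 in control pools, thus also highest in AQUOLIVE® pool 3, as was the organic cation transporter slc22a2 with 8.67, 8.74 and 10.16 against 8.41, 8.86 and 9.73. The other cadherin, cdh16, was lower in every AQUOLIVE® pool, with 7.02, 7.68 and 8.46 against 9.25, 8.98 and 10.15 (adjusted p = 0.174). The endocytic receptor genes lrp2a and lrp2b were detected on no array, cubn in AQUOLIVE® pools 2 and 3 and slc12a3 in AQUOLIVE® pool 2 alone. The summed signal of the 3 probes detected on at least 3 arrays was 550 to 2292 in AQUOLIVE® pools and 979 to 2072 in control pools. The part of renal tubule in these channel signals was not tested. Over all probes tested with a value on every array, 0.464% stood more than 2 log2 units above every other array in AQUOLIVE® pool 3, and 1.62% did so in control pool 2, where the voltage-gated potassium channel kcnc1b stood out at 8.88, against 5.19, 5.50 and 5.13 in AQUOLIVE® pools and 4.65 and 6.24 in the other control pools.

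The genes of store-operated calcium entry were each higher on average in AQUOLIVE® pools, but did not pass the test. The calcium sensor gene stim1a had levels of 6.22, 5.95 and 6.03 in AQUOLIVE® pools 1, 2 and 3 and 5.34, 4.15 and 4.96 in control pools, with no overlap. Its log2 FC was 1.25 ± 0.34 (2.38-fold, adjusted p = 0.174, 95% interval 0.43 to 2.07). The probe was well above background in all 3 AQUOLIVE® pools but in control pool 1 alone among controls, so the control levels rest on dim spots. Its paralog stim1, detected on all 6 arrays, had 8.85, 9.00 and 9.17 in AQUOLIVE® pools and 8.94, 8.66 and 7.76 in control pools, which overlapped (log2 FC 0.56 ± 0.35, adjusted p = 0.407). The pore gene orai2 had 6.05, 5.57 and 5.75 in AQUOLIVE® pools and 5.68, 5.14 and 4.99 in control pools, again overlapping (log2 FC 0.52 ± 0.27, adjusted p = 0.346). Its probe was not well above background in control pool 3. All 3 log2 FC stayed above 0 and above the median of all probes under each alternative in which the probe was tested. The alternatives reuse the same 6 arrays, however, and genes measured in the same pools are not replicates. Of all probes tested, 48.6% were above 0, and of those detected on 3 to 5 arrays, as stim1a and orai2 were, 56.5%.

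**Figure D3:**
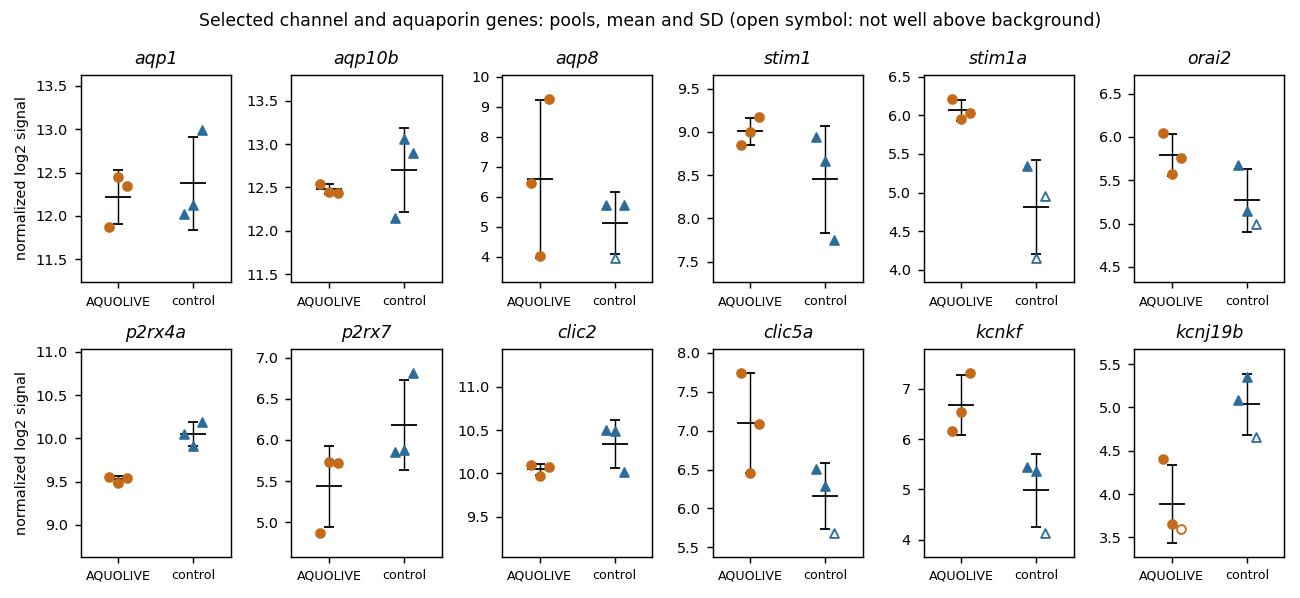
Normalized log2 signal of 12 selected channel and aquaporin genes, with AQUOLIVE® pools left and control pools right. Bars give the mean and SD of 3 pools and open symbols mark pools not well above background. The diets separate for stim1a, p2rx4a, p2rx7, kcnkf and kcnj19b, and overlap for aqp1, aqp10b, aqp8, stim1, orai2, clic2 and clic5a.

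The ATP-gated receptors were lower on average in AQUOLIVE® pools, again without passing the test. The receptor p2rx4a had closely grouped levels of 9.56, 9.48 and 9.55 in AQUOLIVE® pools 1, 2 and 3 and 10.05, 9.91 and 10.19 in control pools, with no overlap. Its log2 FC was -0.52 ± 0.19 (adjusted p = 0.250), or 1.43-fold lower in AQUOLIVE® pools. The receptor p2rx7, which in mammalian macrophages leads to inflammasome activation, had 4.87, 5.73 and 5.72 in AQUOLIVE® pools and 5.85, 5.88 and 6.82 in control pools. These did not overlap either, but AQUOLIVE® pools 2 and 3 lay just below control pools 1 and 2 (log2 FC -0.74 ± 0.39, adjusted p = 0.344). Both values were negative under each scaling alternative but the deposited log2 values taken as they are, where they were 0.70 and 0.10 while the median of all probes was 0.98. The other family members p2rx1, a platelet receptor in mammals, and p2rx3a, a receptor of sensory nerve, were detected in AQUOLIVE® pool 2 alone, at processed signals of 20.8 and 13.8. In AQUOLIVE® pool 1, where they were not called detected, their processed signals read 36.0 and 26.3. The median processed signal was also higher in that pool, 108 against 75.5 in AQUOLIVE® pool 2. Neither these unscaled signals nor detection in 1 pool therefore ranks the pools.

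Chloride channels and their relatives had log2 FC of either sign, and none passed the test. The endosomal chloride and proton exchanger clcn3 had levels of 5.00, 5.83 and 5.48 in AQUOLIVE® pools 1, 2 and 3 and 6.03, 5.99 and 6.30 in control pools (log2 FC -0.67 ± 0.28, adjusted p = 0.275), with no overlap. Of the chloride intracellular channel genes, clic5a was higher on average, with 7.74, 6.46 and 7.09 in AQUOLIVE® pools against 6.50, 6.28 and 5.69 in control pools, the lowest AQUOLIVE® pool falling just below control pool 1 (log2 FC 0.94 ± 0.40, adjusted p = 0.283). The clic5a probe was not well above background in control pool 3, and without that pool its log2 FC was 0.72. The related clic2 had 10.09, 9.97 and 10.08 in AQUOLIVE® pools and 10.51, 10.49 and 10.01 in control pools, and the single low control pool kept the diets overlapping (log2 FC -0.29 ± 0.23, adjusted p = 0.494).

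Potassium channels gave the highest log2 FC of the 36 genes and 2 of the 3 lowest. They also made up much of the list, with 4 tandem-pore, 4 voltage-gated, 3 inward rectifier and 1 auxiliary gene tested. One of the low values, that of kcnc1b (log2 FC -1.32), came with a single high control pool, control pool 2 at 8.88. The kcnk gene kcnkf, a member of the tandem-pore family that carries background potassium current, had levels of 6.15, 6.55 and 7.31 in AQUOLIVE® pools 1, 2 and 3 and 5.44, 5.36 and 4.14 in control pools, the last not well above background. Its log2 FC was 1.69 ± 0.47 (3.23-fold, adjusted p = 0.175, 95% interval 0.56 to 2.83). In the same family kcnk6, which lets potassium out of macrophages in the mouse, had 10.20, 10.08 and 10.55 in AQUOLIVE® pools and 10.03, 9.71 and 9.25 in control pools, without overlap but with AQUOLIVE® pool 2 close to control pool 1 (log2 FC 0.61 ± 0.28, adjusted p = 0.304). With kcnk1b (log2 FC 1.36 ± 1.14) and kcnk12 (0.24 ± 0.45), all 4 tandem-pore genes tested had a log2 FC above 0, which held for 3 of 4 after normexp background correction and without control pool 2. Above 0 lay 48.6% of all probes tested, and 56.5% of those detected on 3 to 5 arrays, as kcnkf, kcnk1b and kcnk12 were. Genes of a family measured in the same pools are not replicates.

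The 3 inward rectifiers tested, which set the resting potential of many cells, had a log2 FC below 0, while 48.6% of all probes tested were above it. For kcnj19b the levels were 4.40, 3.65 and 3.60 in AQUOLIVE® pools and 5.09, 5.35 and 4.66 in control pools, without overlap, and the log2 FC was -1.15 ± 0.32 (adjusted p = 0.175, 95% interval -1.92 to -0.38). This probe was not well above background in AQUOLIVE® pool 3 and control pool 3. The log2 FC was -0.50 ± 0.40 for kcnj2a and -0.33 ± 0.70 for kcnj11l, and the diets overlapped for both. Without control pool 3, 1 of the 3 was above 0, and 2 of 3 were in the deposited log2 values taken as they are. Of the voltage-gated potassium channels, kcnq5a, detected on all 6 arrays, had 11.52, 11.68 and 11.30 in AQUOLIVE® pools and 11.48, 11.67 and 13.05 in control pools, so the log2 FC of -0.57 ± 0.44 (adjusted p = 0.494) came with a single high control pool. The modulatory subunit kcng2 had 9.06, 9.41 and 9.92 against 9.01, 11.20 and 10.64 (log2 FC -0.82 ± 0.59, adjusted p = 0.462).

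**Figure D4:**
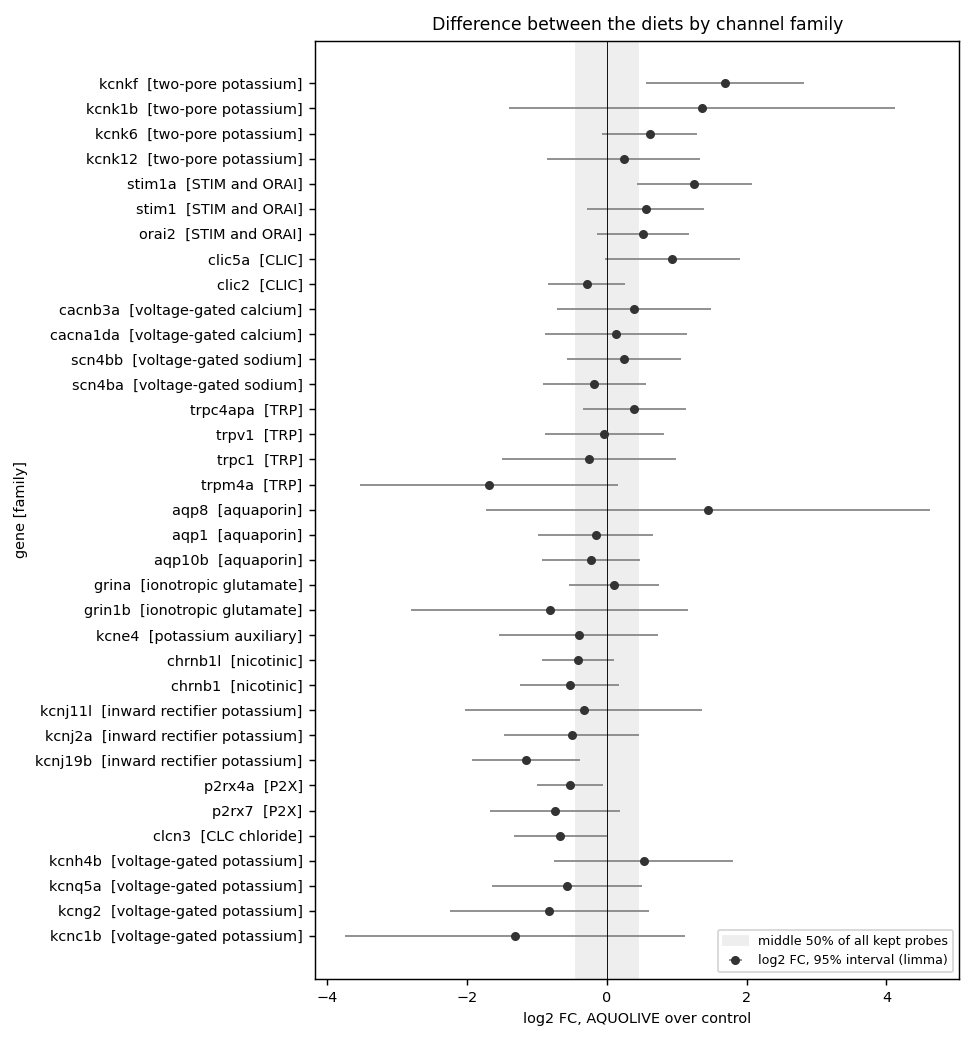
Log2 FC of AQUOLIVE® over control pools for 35 genes tested, grouped by family, with 95% intervals from limma. The gray band holds the middle 50% of all probes tested, -0.44 to 0.44. The 4 tandem-pore (two-pore) potassium and 3 STIM and ORAI genes lie right of 0, the 2 P2X and 3 inward rectifier genes left of it, and most intervals cross 0. Of all probes tested, 48.6% had a log2 FC above 0.

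Among TRP channels, trpv1, the heat- and capsaicin-gated channel of mammalian sensory nerve, had levels of 11.56, 11.53 and 11.49 in AQUOLIVE® pools 1, 2 and 3 and 12.13, 11.72 and 10.84 in control pools. The diets overlapped (log2 FC -0.03 ± 0.35, 95% interval -0.89 to 0.82). The calcium-activated cation channel trpm4a had the lowest log2 FC of the 36 genes, -1.69 ± 0.76 (adjusted p = 0.299), but its pools were widely spread, with 6.00, 8.11 and 5.93 in AQUOLIVE® pools and 8.16, 7.47 and 9.47 in control pools. AQUOLIVE® pool 2 thus lay among the control pools. The log2 FC was -0.26 ± 0.51 for trpc1 and 0.39 ± 0.30 for trpc4apa, with adjusted p of 0.794 and 0.489.

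The subunits best known from nerve and muscle were mostly dim. The nicotinic receptor subunit chrnb1l had levels of 5.70, 5.40 and 5.49 in AQUOLIVE® pools 1, 2 and 3 and 5.92, 5.79 and 6.12 in control pools, with no overlap (log2 FC -0.41 ± 0.21, adjusted p = 0.340). The sodium channel beta subunit scn4bb had a log2 FC of 0.24 ± 0.34 (adjusted p = 0.699). Fewer pools were well above background for the nicotinic subunit chrnb1 (4 pools) and the glutamate receptor subunit grin1b (3 pools). The diets overlapped for both, with differences of -0.53 ± 0.29 and -0.82 ± 0.82 (adjusted p = 0.366 and 0.593). By contrast grina, which resembles Bax inhibitor proteins, was well above background in all 6 pools, at levels of 10.9 to 11.7. Its difference was 0.11 ± 0.27 (adjusted p = 0.838). Of 11 nerve and muscle genes looked up, 3 had a probe, all 3 were detected on all 6 arrays and none passed the test, and their summed signal was 552 to 3499 in AQUOLIVE® pools and 1741 to 8409 in control pools. Their part in the channel values was not tested.

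For some other cell type markers the pools of the diets did not overlap, but none passed the adjusted test. At an unadjusted p under 0.05 at most 1 probe passed per list and direction. Of all probes tested, 9.56% were higher and 8.59% lower at that level. Of those with a value on every array, 14.7% were higher without overlap and 15% lower without overlap. The summed signal of 4 T-cell probes (2 of 8 genes looked up) was 1148 to 1320 in AQUOLIVE® pools and 305 to 1084 in control pools. Within it the cd8a probes were higher without overlap (log2 FC 1.66 ± 0.70 and 0.67 ± 0.33). The cd3e probes overlapped and differed in sign (0.68 ± 0.72 and -1.12 ± 0.82). Each probe was lowest among controls in control pool 3, where both cd3e probes and 1 cd8a probe were not well above background. The summed signal of 3 thrombocyte probes (3 of 5 genes) was 3378 to 3980 in AQUOLIVE® pools and 4299 to 5704 in control pools. Within it itga2b, the platelet integrin gene, was lower without overlap (log2 FC -0.78 ± 0.22, adjusted p = 0.175). The diets overlapped for gp9 (-0.12 ± 0.24) and for f5 (-0.21 ± 1.12), the latter not well above background in AQUOLIVE® pool 1. Of 9 interrenal and chromaffin genes, 6 had a probe and cyp17a1 was detected on no array. The steroid genes star and hsd3b1 were detected on all 6 arrays and had a log2 FC of 0.18 ± 0.37 and -0.09 ± 0.27, from AQUOLIVE® pools 1 and 3 and all control pools, since their spots in AQUOLIVE® pool 2 were marked as outliers. The chromaffin enzyme genes th and pnmt, each detected on 4 arrays, summed to 44.8 to 76.5 in AQUOLIVE® pools and 76.7 to 122 in control pools. Of these, th was lower without overlap (log2 FC -1.34 ± 0.45, adjusted p = 0.219) and pnmt overlapped (-0.30 ± 0.30). Both were dim, and neither was well above background in AQUOLIVE® pool 3 or control pool 3. The gene chga of the same list was detected in AQUOLIVE® pool 2 alone. In the erythroid list the globin gene hba had levels of 16.48 and 16.63 in AQUOLIVE® pools 1 and 3, with an outlier spot in pool 2, and 15.79, 15.62 and 15.58 in control pools (log2 FC 0.89 ± 0.24, adjusted p = 0.177). The other 3 erythroid probes summed to 41845 to 52456 in AQUOLIVE® pools and 41110 to 57477 in control pools. Their log2 FC was -0.19 ± 0.21 for gata1, -0.18 ± 0.23 for alas2 and 0.54 ± 0.34 for rhag. In the myeloid list mpx was lower, with 13.55, 13.46 and 13.49 in AQUOLIVE® pools and 14.35 and 14.46 in control pools 1 and 2, the spot in control pool 3 being an outlier. The receptor gene csf3r was higher without overlap (log2 FC 1.27 ± 0.41, adjusted p = 0.208). In contrast, cebpa was lower without overlap (-0.47 ± 0.21, adjusted p = 0.291), and cebpb overlapped (-0.15 ± 0.44). Among endothelial probes kdr was lower without overlap (log2 FC -0.97 ± 0.33, adjusted p = 0.218), while pecam1a (0.09 ± 0.47) and pecam1b (-0.07 ± 0.21) overlapped. The sums of the B-cell and endothelial lists, and that of the myeloid list without mpx, overlapped between the diets. The part of these cells in the channel values was not tested.

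Pumps, exchangers and channels outside the symbol rule gave a similar picture. Of 69 such genes, 31 had a probe (33 probes), 21 probes were tested, 10 of them had a log2 FC above 0, and the median was -0.17. None passed the adjusted test (smallest adjusted p 0.171). At an unadjusted p under 0.05, 1 of the 21 was higher and 1 lower, against 9.56% and 8.59% of all probes tested. The mitochondrial outer membrane channel vdac1 was higher, with levels of 10.82, 11.00 and 11.00 in AQUOLIVE® pools 1, 2 and 3 and 10.35, 10.11 and 10.15 in control pools (log2 FC 0.74 ± 0.20). Its relatives vdac2 and vdac3 had a log2 FC of -0.23 ± 0.34 and -0.26 ± 0.23. The sodium pump subunit atp1b3b was lower, with 2.95, 3.99 and 3.65 in AQUOLIVE® pools against 4.26, 4.87 and 5.41 in control pools (log2 FC -1.32 ± 0.40), but was well above background on 3 arrays only. Another subunit, atp1b1a, detected on all 6 arrays, had a log2 FC of 0.29 ± 0.32. Calmodulin, which gates many of these channels, was represented by calm1a, calm2a and calm3b, each detected on all 6 arrays, with log2 FC of -0.39 ± 0.22, -0.17 ± 0.21 and -0.26 ± 0.27.

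**Figure D5:**
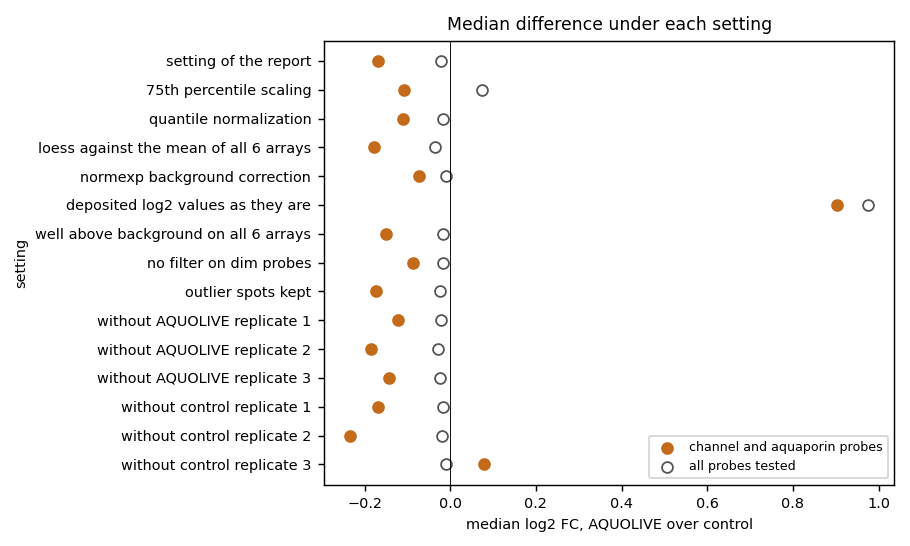
Median log2 FC (AQUOLIVE® over control) of the channel and aquaporin probes (filled) and of all probes tested (open) in the setting of the report and each alternative. The filled symbols lie left of the open ones except without control pool (replicate) 3, where the median is 0.08, and both lie near 1 in the deposited log2 values taken as they are.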

How the data were processed

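HK RNA of 3 AQUOLIVE® and 3 control pools was analysed, grouped by sample title. The authors deposited the intensity of each spot with its detection and outlier flags, as Agilent Feature Extraction 10.7.3.1 wrote them per the file headers. The deposited log2 table held the background-subtracted signal on the log2 scale (tolerance 1e-06), unscaled between arrays. Processed intensities were log2-transformed in R 4.3.3, array controls were dropped, outlier spots were set to missing (none lay on a channel probe), and spots of a probe were averaged. A probe was kept if it was well above background on 3 or more arrays. Each array was fitted by robust loess (span 0.3, 4 iterations) against the mean of the 3 control arrays. The fit across all 25826 kept probes used limma 3.58.1 (two-sided, Benjamini-Hochberg adjustment, threshold 0.05). The methods' t-test was run on the same values. Precision is limited by there being 6 arrays.

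Of 42386 probes, 40933 held a RefSeq accession, 25641 were found in the gene table and 8155 had a symbol. No coordinates of this assembly and no sequences are given. Named genes are those past the adjusted test (0), members of the aquaporin, STIM and ORAI, ryanodine and inositol trisphosphate receptor, P2X, clic and Piezo families detected on 1 array or more, genes without overlap between the diets at an unadjusted p under 0.05, and up to 6 genes per family detected on all 6 arrays. The other genes named, with signals in 1 pool or as family members, were chosen after their values were seen. The members, lists and tests were chosen with earlier results of these data known. Normexp (offset 50) used median spot and background intensities. The scripts were tested on simulated data. Alternatives are given in the closing section. A gene counted with the others is not reported here by name.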

Additional observations from a re-analysis of the deposited data

How the results depend on the processing

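No channel or aquaporin gene passed limma's adjusted p under 0.05 in any of the 16 alternatives, where the smallest adjusted p ranged from 0.152 to 0.534. At an unadjusted p under 0.05, against 2 higher and 3 lower, counts of higher and lower genes were 2 and 0 with 75th percentile scaling, 2 and 1 with quantile normalization, 1 and 0 after normexp, 4 and 0 in the deposited log2 values, 1 and 1 among probes detected on all 6 arrays and 4 and 0 with no filter (89 genes). Leaving out 1 pool at a time gave 2 to 4 higher and 1 to 4 lower, 0 adjusted, and medians of -0.23 to 0.079; the last was without control pool 3. In the deposited log2 values the median was 0.90, beside 0.98 over all probes, of which 92.9% were positive, against 48.6% after loess. Higher and lower probes there made up 12.9% and 0.17% of all probes, 11.5% and 5.17% with 75th percentile scaling, and 6.92% and 3.20% after normexp, against 9.56% and 8.59%. They made up 9.82% and 7.58% with quantile normalization and 10.65% and 9.14% among probes detected on all 6 arrays. With no filter they made up 7.63% and 5.25%. With 1 pool left out, higher probes made up 5.09% to 11.4% of all probes and lower probes 3.90% to 8.86%. The deviations of same-numbered pools from the mean of their diet correlated across probes at 0.21, -0.06 and 0.03, and these pools were not treated as pairs. With pool number as a replicate block, 3 genes were higher and 1 lower, beside 9.10% and 7.01% of all probes. Detected genes numbered 36 on at least 3 arrays, 63 on at least 1, 18 on all 6, and 58 with the weaker flag of a positive and significant signal. The count detected on more AQUOLIVE® than control arrays was 30, and 8 without AQUOLIVE® pool 2 and control pool 3, an alternative chosen after seeing the data. After normexp the log2 FC also shrank to 0.68 for aqp8, 0.48 for clic5a, 0.37 for stim1, 0.23 for orai2, 0.03 for trpc4apa, 0.06 for scn4bb, -0.87 for trpm4a, -0.10 for kcng2, -0.27 for kcnq5a and -0.09 for trpc1. It grew in size for trpv1, from -0.03 to -0.28, and for aqp10b, from -0.22 to -0.27. Over the 36 genes, signs turned for 5 after normexp, 18 in the deposited log2 values (3 of them above the median of all probes), 1 with 75th percentile scaling and 0 to 5 with 1 pool left out. Among the 23 named genes, they turned after normexp for 3 (log2 FC aqp1 0.084, clic2 0.11, grina -0.078). In the deposited log2 values, named genes that turned were aqp1 (0.80), aqp10b (0.46), chrnb1l (0.56), clcn3 (0.20), clic2 (0.94), kcng2 (0.83), kcnq5a (0.46), p2rx4a (0.70), p2rx7 (0.10), trpc1 (0.93) and trpv1 (0.46), these 11 all below the median of all probes. With 1 pool left out, the log2 FC ran from -0.34 to 0.15 for aqp1, -0.077 to 0.30 for grina, -0.60 to 0.32 for trpc1 and -0.40 to 0.25 for trpv1, with the sign of the full fit turned without control pool 3 for aqp1, grina and trpc1, without AQUOLIVE® pool 1 also for aqp1, and without control pool 1 or 2 for trpv1. The cause was not tested.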
